A study of Mus musculus with 12 samples.

Results

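Wild-type mouse embryonic stem cells were compared before differentiation (day 0) and after 6 days of cardiac differentiation (day 6). The comparison used 6 of the 12 libraries of the series, 3 at each time point, chosen by their labels, and every merged locus of the count table. All cells are labelled as strain C57BL/6J, and the wild-type groups carry no named allele or transgene. Stem cells were kept with LIF at 1000 U/ml, either on gelatin or on feeder layers of mouse embryonic fibroblasts, and the labels do not say which surface a library came from. Differentiation started in hanging drops of 1000 cells, which form embryoid bodies. The 3 day 0 libraries of the Notch1-/- cells, grown under the same protocol, served as a check that the choice of classes did not use. The series design speaks of biological replicates, but nothing says whether they were separate cultures or clones. The p-values therefore measure only the spread between these libraries, which may be technical.

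Stem cells in LIF keep a network of transcription factors, among them Pou5f1, Sox2, Esrrb and Klf factors, that holds them in a naive state. When LIF is withdrawn and the cells aggregate, they pass through a state like the early epiblast and the primitive streak, and form mesoderm, endoderm and their derivatives, including heart, vessels and yolk sac. Feeder fibroblasts make collagens, matrix enzymes and chemokines. Their RNA enters a library of stem cells when they are harvested together, and it is measured at the same loci as the RNA of the stem cells.

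The libraries held 112892606 to 121163425 counts each. The filter on low counts left 23991 loci, and levels are given as CPM, counts divided by library size, scaled between libraries with TMM. The day 0 libraries differed more among themselves than the day 6 libraries did: pairs of replicates gave a chi-square of 214 to 404 per degree of freedom at day 0 and 41.3 to 56.5 at day 6. Symbols rest on matched exon structures and not on identifiers. The labels' cell types were checked against defining markers. Zfp42 and Esrrb marked stem cells in all 3 day 0 libraries. Sox2 was not linked to a locus of its own, and Pou5f1 shares a merged locus with Cchcr1 and Psors1c2, so neither is given here. Day 6 libraries held markers of cardiac progenitors (Isl1, Tbx20), vessels (Cdh5, Kdr) and visceral endoderm (Ttr, Apob). Tbx5, Tek, Afp and Apoa1, further markers of these types, rose as well. The vessel marker Pecam1 fell (-0.965, edgeR adjusted p = 0.0102), and the cardiac marker Nkx2-5 reached only 0.658 to 1 CPM. Of the macrophage markers, Csf1r lay at 0.397 to 0.597 CPM at day 0 and 0.497 to 1.14 CPM at day 6, and Ptprc fell from 0.0439, 0.222 and 0.135 CPM to 0 in all 3 libraries. These are bulk libraries, so fewer cells of a type and less RNA per cell cannot be told apart.

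Between day 0 and day 6, a change was called at 43% of the tested loci. Of the 23991, 4404 (18.4%) were higher at day 6 and 5910 (24.6%) were lower (quasi-likelihood F test of edgeR, p adjusted by Benjamini and Hochberg's method, under 0.05). Loci that were higher were 42.7% of the calls with TMM, 32.9% with upper quartile scaling, which moved the median of all loci to -0.29, and 53.3% by the deposited FPKM values (limma). Values of the 2 groups did not overlap at 53.8% of the loci. Loci that rose took 13.1% of all counts at day 0 and 28.6% at day 6, and loci that fell took 22.7% and 11.6%. A change from under 1 to at least 10 CPM occurred at 57 loci, and from at least 10 to under 1 CPM at 35. Of 2297 unannotated spliced loci between genes, with a median of 0.353 CPM at day 0, 860 (37.4%) fell and 244 rose. Of 11990 protein-coding genes, with a median of 13.7 CPM, 2824 fell and 2707 rose, and the difference was not tested.

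Falls were divided by whether they varied with fibroblast RNA among the day 0 libraries. The index was the mean log2 CPM of Lox, which cross-links collagen, Mgp, an inhibitor of calcification in matrix, and S100a4, a calcium-binding protein of mesenchymal cells. Its values in the wild type were 5.88, 5.57 and 6.69 for replicates 1, 2 and 3 of day 0, and -1.25, -1.40 and -0.13 for those of day 6. Library 3 was the highest at both time points. A fall was called following when its log2 CPM rose by at least 0.5 per unit of the index over the 3 day 0 libraries and ranked them in the same order. It was called not following when that slope was under 0.25. Since the index comes from the same 3 libraries, these classes are a description without a test.

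The 3 index genes did not vary alike. Mgp was 45.1, 33.9 and 85.4 CPM at day 0 and fell to 0.356, 0.279 and 0.889 CPM (log2 change -6.75, SE 1.09, edgeR adjusted p = 0.000432). S100a4 was 19.5, 16.3 and 57.1 CPM at day 0 and fell to 0.190, 0.203 and 0.427 CPM (-6.82, SE 0.85, edgeR adjusted p = 6.95e-05). Both were highest in library 3 at day 0. Lox was 232, 193 and 224 CPM at day 0 and fell to 1.06, 0.923 and 1.97 CPM (-7.36, SE 0.61, edgeR adjusted p = 4.51e-06). Lox was nearly level over the wild-type day 0 libraries, with a slope of 0.14 on an index that contains it, so it fell among the genes that did not follow. In the Notch1-deficient day 0 libraries Lox was 69.7, 185 and 375 CPM, with a slope of 1.12.

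**Figure D1:**
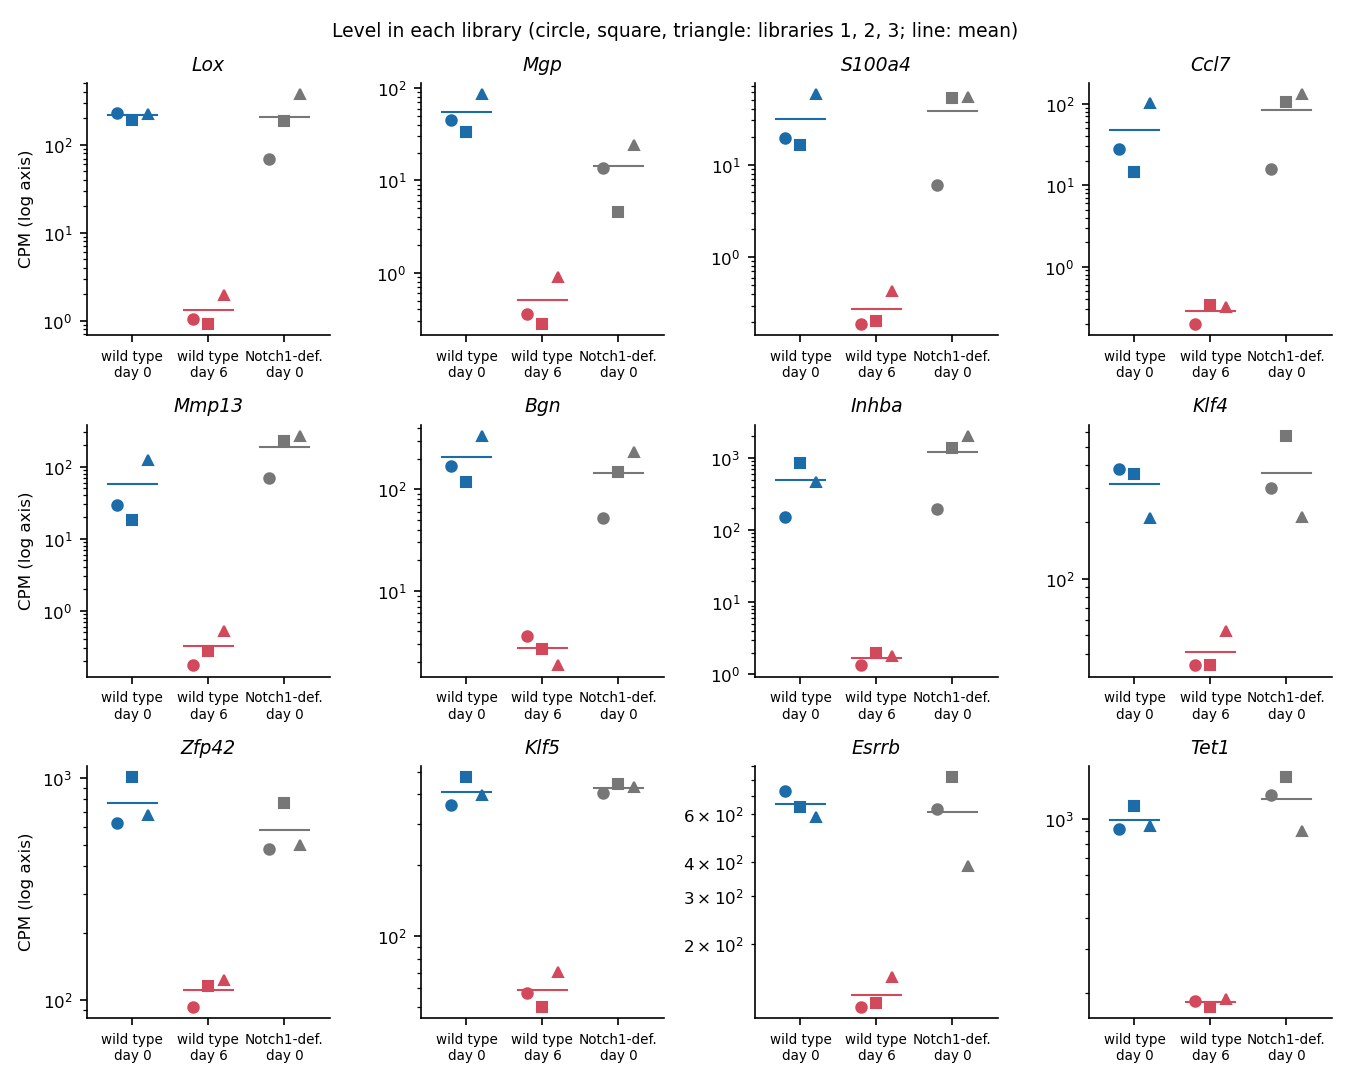
CPM on a log axis (y, with its own range in each panel) of 12 genes in 3 groups (x): wild type at day 0, wild type at day 6 and Notch1-deficient at day 0. Each point is a library (circle 1, square 2, triangle 3) and each line a mean. Mgp, S100a4, Ccl7, Mmp13 and Bgn are highest in wild-type day 0 library 3, while Inhba is highest in library 2 and Klf4, Zfp42, Klf5, Esrrb and Tet1 do not rank the libraries as the index does.

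Of the 5910 falls, 962 (16.3%) followed the index, 3163 (53.5%) did not, and 1785 lay between. The Notch1-deficient day 0 libraries had index values of 4.16, 5.15 and 6.31. In them, a slope of at least 0.5 on their own index was found for 295 of the 962 following falls (30.7%), 382 of the 1785 between (21.4%) and 526 of the 3163 not following (16.6%), against 14.7% of all tested loci. To follow in the Notch1-deficient line means this slope alone, without the rule on order and without a called fall in that line. The 295 loci that followed in both lines fell by a median of 3.16 on the log2 scale. Of them, 218 (73.9%) were also called lower at day 6 in the Notch1-deficient line, against 18.6% of all loci and 49.1% of all falls. The share was 68.1% for not following falls with a slope of at least 0.5 in that line. The slope and the fall in that line rest on the same day 0 libraries, so the shares of 73.9% and 68.1% depend on the choice by slope. Without that choice, the share was 47.8% for all following falls and 51.9% for all not following falls. Loci that followed in both lines took 0.806% of all counts at day 0 and 0.0906% at day 6. The 2276 with a slope under 0.25 in both lines fell by a median of 1.41, from a median of 10.2 CPM at day 0. Just inside the limit of 0.5 lay Depdc7, Acy1 and Zfp941 (slopes 0.502, 0.514 and 0.518), and just outside lay Col18a1 and Cndp2 (0.494 and 0.497). Without wild-type day 0 library 3, 673 of the 962 following falls (70%) were still called lower. The same held for 1310 of the 1785 between (73.4%) and 2813 of the 3163 that did not follow (88.9%). The rule requires library 3 to be the highest of a following fall, so leaving it out weakens these falls by construction, and no conclusion is drawn.

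Fibroblast genes formed 1 group of the following falls. The list of 30 genes had 28 tested members, of which 18 fell, 1 rose and 9 were not called (median -2.51, against -0.12 over all tested loci). Among all tested loci, 24.6% fell and 18.4% rose. Of the 18 falls, 17 followed, Lox being the exception. The list holds the 3 index genes. Without them, 15 of 25 fell, all 15 followed, and 14 of the 15 had a slope of at least 0.5 in the Notch1-deficient line. Counting those not called as well, 22 of the 25 followed the index in the wild type and 23 had such a slope in the Notch1-deficient line. Without wild-type day 0 library 3, 13 of the 28 were called lower and 4 higher.

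The chemokine genes Ccl7, Cxcl5 and Ccl2 followed in both lines, as did Tm4sf1 and Mcpt8. Ccl7, which attracts monocytes, was 27.9, 14.4 and 101 CPM at day 0 and fell to 0.20, 0.34 and 0.32 CPM (-7.39, SE 0.99, edgeR adjusted p = 0.000119). In the Notch1-deficient day 0 libraries it was 15.9, 104 and 130 CPM. Library 3 was highest in both lines, and no day 6 library overlapped day 0. Cxcl5, a neutrophil attractant, went from 15.6, 5.06 and 49.0 CPM to 0.20 CPM or less, and Ccl2, the main monocyte attractant of fibroblasts, from 52.0, 24.9 and 204 CPM to 1.55, 2.06 and 1.90 CPM. Tm4sf1, a surface protein of mesenchymal and vessel cells, fell from 23.2, 15.0 and 89.5 CPM to between 0.05 and 0.15 CPM. Mcpt8 is a serine protease of basophils. It fell by 11.92 on the log2 scale, from 16.0, 9.43 and 52.4 CPM to 0.02 CPM or less.

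Mmp13, Mmp3 and Mmp10, matrix metalloproteinases that cut collagen and other matrix proteins, followed in both lines. Mmp13, a collagenase, was 29.2, 18.0 and 124 CPM at day 0 and fell to 0.17, 0.28 and 0.52 CPM (-7.46, SE 0.86, edgeR adjusted p = 4.07e-05). Mmp3 was 35.7, 16.0 and 176 CPM and fell to 1.13, 1.75 and 3.35 CPM. Mmp10 was 9.60, 7.65 and 42.4 CPM and fell to 0.0828, 0.135 and 0.342 CPM. The 3 genes lie in a cluster of such genes on chromosome 9, Mmp13 at 7272514 to 7283333, Mmp3 at 7445822 to 7455974 and Mmp10 at 7502360 to 7510240 (mm9, plus strand).

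The promoters of the 3 metalloproteinases are shown because each holds the letters TGANTCA, the site of the transcription factor AP-1 (Fos and Jun proteins), just before the start. Serpinb2, an inhibitor of plasminogen activators, is shown with them as a gene that followed in the Notch1-deficient line alone. The stretches are RefSeq sequence of build GRCm38.p6 on the plus strand, 5′ to 3′, with the AP-1 letters in capitals: chr9:7272424-7272513 for Mmp13, chr9:7445721-7445821 for Mmp3, chr9:7502224-7502340 for Mmp10 and chr1:107511274-107511390 for Serpinb2.
Mmp13: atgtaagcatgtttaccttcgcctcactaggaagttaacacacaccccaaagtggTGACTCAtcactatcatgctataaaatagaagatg
Mmp3: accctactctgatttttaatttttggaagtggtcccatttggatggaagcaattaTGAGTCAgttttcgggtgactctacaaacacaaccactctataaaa
Mmp10: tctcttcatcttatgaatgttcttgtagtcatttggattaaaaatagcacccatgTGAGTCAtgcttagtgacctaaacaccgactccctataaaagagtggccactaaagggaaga
Serpinb2: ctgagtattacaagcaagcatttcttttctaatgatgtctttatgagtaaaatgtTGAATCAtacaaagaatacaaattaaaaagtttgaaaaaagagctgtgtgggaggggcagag
The capitals begin 35 bases before the start in Mmp13, 46 in Mmp3, 63 in Mmp10 and 94 in Serpinb2.

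The AP-1 letters stood in a larger share of promoter windows of genes that followed in the Notch1-deficient line. Windows ran from 250 bases before to 50 after each start, and both strands were searched (TGANTCA reads the same on both). They held the letters in 37 of 197 windows (18.8%) of genes that followed in both lines and in 31 of 209 (14.8%) of genes that followed only in the Notch1-deficient line. The share was 14 of 204 (6.86%) for genes that followed in the wild type with a slope under 0.25 in the other line, 62 of 1345 (4.61%) for genes with a slope under 0.25 in both lines, 5.31% for genes that rose at least 2-fold, 6.23% for all tested genes and 7.81% for all 32851 windows. Of the 199 genes that followed in both lines, 152 had a window. The other 5 motifs searched were TCAAGGTCA (Esrrb), ATTTGCAT (octamer), AGATAA (the site of Gata4 and its relatives), CCACACCC (Klf) and AGGTGTGA (T-box). Over the 5 classes their shares ran from 0% to 0.508%, 0.996% to 2.54%, 6.25% to 9.09%, 3.49% to 6.86% and 0.664% to 2.94%, against 0.423%, 1.74%, 11.2%, 3.56% and 1.28% of all windows. All 6 motifs were picked after the classes and their genes had been seen, and the counts are a description. The 4 windows printed are those with a match before the start among 15 genes looked up for AP-1, which also included Ccl2, Cxcl5, S100a4, Spp1, Tnc and Inhba. Among the 177 genes named by rule, 7 had the AP-1 letters in a window. Serpinb2, Mmp13 and Itga3 of these fell, and Smarca2, Wnt5b, Rbp4 and Capn6 rose. Over all 6 motifs, 5 of 24 pairs of gene and motif looked up had a match, and 6 of the 24 had no window.

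Structural matrix genes followed too. Bgn, a small proteoglycan of connective tissue, was 170, 118 and 334 CPM at day 0 and fell to 3.62, 2.71 and 1.86 CPM (-6.25, SE 0.58, edgeR adjusted p = 1.02e-05). Thbs2, an inhibitor of vessel growth, went from 78.6, 34.4 and 107 CPM to between 0.83 and 1.44 CPM. Spp1, a secreted phosphoprotein, was the most abundant of them, with 1396, 1167 and 3601 CPM at day 0, against 50.2, 57.6 and 89.2 CPM at day 6. Tnc, a matrix glycoprotein, went from 493, 479 and 1216 CPM to 50.3, 63.5 and 73.1 CPM.

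Fibroblast collagens were not all lower at day 6. Col1a2 fell from 291, 127 and 580 CPM to 107, 100 and 56.4 CPM (-1.92, SE 0.66, edgeR adjusted p = 0.0319), a call lost without day 0 library 3 (-1.25, edgeR adjusted p = 0.159) or without any 1 of the day 6 libraries (0.0632 to 0.106). Col1a1, the other chain of type I collagen, was 412, 219 and 883 CPM at day 0, against 886, 834 and 484 CPM at day 6, and was not called (0.54, SE 0.46, edgeR adjusted p = 0.36). Without day 0 library 3, Col1a1 and Col3a1 were called higher at day 6 (1.22 and 1.92, edgeR adjusted p = 0.0439 and 0.0105). Mmp2 was called higher under 7 alternatives, among them the replicate block and DESeq2 (adjusted p = 0.0311 and 0.0291), and Vim in a fit of the wild-type libraries alone (edgeR adjusted p = 0.0298). Col3a1, Fn1, Vim, Prrx1, Cd44, Lum, Loxl1 and Mmp2 were not called either. Postn, a matrix protein of fibroblasts and heart valves, rose from 41.9, 29.3 and 79.3 CPM to 111, 137 and 163 CPM (1.45, SE 0.52, edgeR adjusted p = 0.0376), a call kept only without day 0 library 3 when single libraries were left out (edgeR adjusted p of 0.051 to 0.111 without each of the other 5). At day 0 Col1a1, Col3a1 and Postn ranked the wild-type libraries as the index did, with slopes of 1.71, 2.94 and 1.25. At day 6 Lox, Mgp and S100a4 were at or under 1.97 CPM.

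A second group followed in the wild type alone. There were 550 such loci, with a slope under 0.25 in the Notch1-deficient day 0 libraries. A slope that low is common: 2276 of the 3163 not following falls had it, and the median over all tested loci was 0.00262. Of the 550, 186 (33.8%) were also called lower in that line, against 49.1% of all falls and 18.6% of all loci. This share too depends on the choice by slope, which used the same day 0 libraries as the fall in that line. The following genes of this group were chosen after their values had been seen, except Trim12a. Hprt, an enzyme of purine salvage, was 11.7, 11.4 and 20.7 CPM in the wild type at day 0 and 1.30, 1.48 and 1.39 CPM at day 6 (-3.39, SE 0.21, edgeR adjusted p = 1.21e-06). Levels in Notch1-deficient cells were 281, 277 and 295 CPM at day 0, against 220, 233 and 244 CPM at day 6. Trim12a, an antiviral TRIM protein, was 2.50, 0.784 and 4.94 CPM in the wild type at day 0 and at most 0.0414 CPM at day 6, against 17.6 to 19.7 CPM in the Notch1-deficient line at day 6. The change of both genes differed between the lines (edgeR, adjusted p under 0.05 for the difference, a call made at 11.1% of tested loci). Actn3, a muscle actinin, fell from 39.9, 29.8 and 51.1 CPM to between 3.14 and 3.58 CPM.

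Y-linked genes gave a measure that the index did not use. Ddx3y, Eif2s3y and Uty were expressed in the wild type at both time points, and none was called: Ddx3y was 56.8, 97.7 and 65.4 CPM at day 0, against 50.2, 49.2 and 66.5 CPM at day 6. At day 0 the Notch1-deficient libraries held Ddx3y at 3.17, 9.83 and 17.6 CPM, Eif2s3y 2.69, 7.56 and 13.6 CPM and Uty 1.00, 1.95 and 3.29 CPM, in the order of the index (slopes 1.13, 1.08 and 0.79). At day 6 that line held at most 0.125 CPM of each. Kdm5d, a histone demethylase and the fourth gene of the list, differed from the other 3 in the wild type. It was 2.98, 2.00 and 4.77 CPM at day 0 and at most 0.0745 CPM at day 6 (-5.69, SE 0.57, edgeR adjusted p = 1.69e-05), and it followed the index in both lines. Their part in the other results was not tested. The labels do not say whether both lines come from 1 parent line, so the Notch1 deletion and other differences between the lines cannot be told apart.

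**Figure D2:**
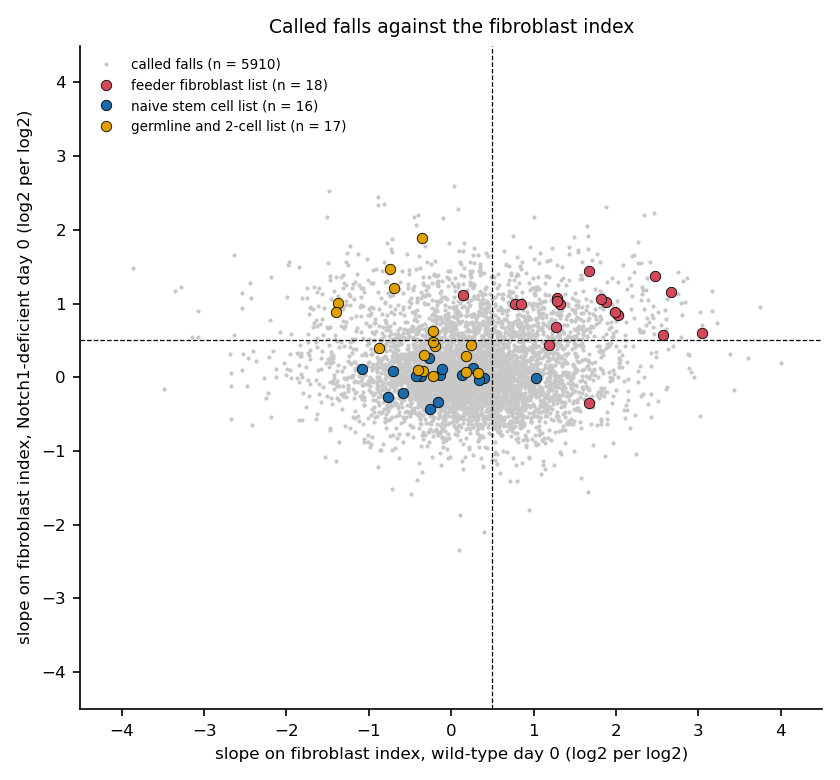
Slope of log2 CPM on the fibroblast index (log2 per log2) over the 3 wild-type day 0 libraries (x) and the 3 Notch1-deficient day 0 libraries (y) for the 5910 called falls (grey) and the falls of 3 gene lists. Dashed lines mark 0.5. The feeder fibroblast list lies mostly above 0.5 on both axes, all 16 falls of the naive list lie under 0.5 on the y axis, and 6 of the 17 germline falls lie at or above it.

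Stem cell genes made up another set of falls. Of the 20 tested members of a naive stem cell list of 28, 16 fell, 1 rose and 3 were not called (median -1.67). Among all tested loci, 24.6% fell and 18.4% rose. Of the 16 falls, 12 did not follow the index, 3 lay between and 1 followed, and none had a slope of at least 0.5 in the Notch1-deficient line, against 14 of the 15 fibroblast falls outside the index. The 1 that followed by counts was Nanog, a core factor of the network. With 53.7% of its exon length shared with another locus, its counts were only 1.11 to 2.38 CPM at day 0 and are uncertain. By FPKM it was 272, 234 and 151 at day 0, lowest in the library with the highest index, and 47.4, 53.2 and 58.3 at day 6 (-1.99, SE 0.25, limma adjusted p = 0.000152). Its call by counts was lost without day 0 library 3 (-0.62, edgeR adjusted p = 0.167) and without day 6 library 2 or 3. Zfp42 (Rex1), a zinc finger protein of naive cells on chromosome 8 (44372160 to 44393033, minus strand, mm9), was 623, 1003 and 680 CPM at day 0 and fell to 93.3, 116 and 124 CPM (-2.79, SE 0.24, edgeR adjusted p = 5.02e-06). Library 2, which had the least of the fibroblast index, had the most Zfp42.

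The other naive factors did not rank the day 0 libraries as the index did. Klf5, a Krüppel-like factor that supports self-renewal, went from 360, 472 and 399 CPM to 57.5, 50.1 and 70.5 CPM (-2.79, SE 0.19, edgeR adjusted p = 1.61e-06). Esrrb, an orphan nuclear receptor, went from 732, 639 and 588 CPM to 118, 122 and 151 CPM. Klf4 was 382, 360 and 210 CPM at day 0, lowest in the library with the highest index, and 34.8, 34.7 and 52.4 CPM at day 6. L1td1, an RNA-binding protein of stem cells, went from 538, 1547 and 1143 CPM to 136, 160 and 217 CPM. None of these genes reached 0 at day 6: Zfp42 and Esrrb stayed above 90 CPM in every library. Il6st, the signal-transducing chain of the LIF receptor, rose slightly (0.50, SE 0.12, edgeR adjusted p = 0.006), and Lifr, the other chain, was not called.

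Of 6 tested genes of the primed epiblast, 3 fell (Etv5, Lefty2, Dnmt3b) and 3 were not called, where 24.6% of all tested loci fell. Dnmt3b, a de novo DNA methyltransferase, was 229, 406 and 645 CPM at day 0 and fell to 181, 203 and 219 CPM (-1.09, edgeR adjusted p = 0.0328). It was not called when any single library other than day 0 library 1 was left out, with edgeR adjusted p of 0.0522 to 0.176, and by FPKM it was not called either (limma adjusted p = 0.0731). Fgf5, a growth factor of the epiblast, was 1.57, 5.96 and 5.99 CPM at day 0, against 4.85, 8.24 and 15.7 CPM at day 6, groups that overlapped. It was called higher with the replicate block (1.06, edgeR adjusted p = 0.0391) and without day 6 library 1 (1.42, edgeR adjusted p = 0.0445).

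Germline and 2-cell genes, a set that stem cells express at low levels, fell nearly throughout. Of 19 tested, 17 fell, 1 rose (Tdrkh, not called without day 0 library 1 or day 6 library 1 or 2) and 1 was not called (median -2.20). The shares over all tested loci were 24.6% lower and 18.4% higher. Of the 17, 16 did not follow the index in the wild type, but 6 had a slope of at least 0.5 in the Notch1-deficient line. Stra8, a gene induced by retinoic acid at the entry to meiosis, was 26.3, 29.1 and 10.6 CPM at day 0 and fell to 0.23, 0.17 and 0.14 CPM (-6.93, SE 0.90, edgeR adjusted p = 9.76e-05). Piwil2, which works with small RNAs against transposons, fell from 20.8, 27.9 and 22.1 CPM to 5.36, 4.58 and 5.83 CPM. Zscan4c and Zscan4d, near-identical copies marking a 2-cell-like state, fell by 4.37 and 4.57, and their reads may be shared.

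The rule for falls that did not follow also took in 526 loci with a slope of at least 0.5 in the Notch1-deficient line. Of the 526, 358 (68.1%) were also called lower at day 6 in that line, a share that depends on the choice by that slope. Several large falls of the class were among the 526. Inhba, the beta A subunit of activin, was 150, 855 and 459 CPM in the wild type at day 0 and 1.33, 1.96 and 1.81 CPM at day 6 (-8.16, SE 0.90, edgeR adjusted p = 2.97e-05). In the Notch1-deficient day 0 libraries it was 196, 1381 and 2017 CPM. Inhbb, the beta B subunit, fell from 30.5, 43.1 and 42.2 CPM to between 0.68 and 0.85 CPM with slopes near 0 in both lines (0.09 and 0.07). Serpinb2 was 3.19, 46.0 and 18.4 CPM at day 0 and at most 0.04 CPM at day 6. Lrrc32, a carrier of latent TGF-beta, Tnfsf11, the ligand of RANK, Areg, a ligand of the EGF receptor, and Col5a3 shared this pattern. Fosb, a subunit of AP-1, was 123, 28.3 and 3.68 CPM in wild-type day 0 libraries 1, 2 and 3, against the order of the index, and 10.3, 35.0 and 60.1 CPM in the Notch1-deficient libraries, in its order. Its log2 change was -4.51, and -2.82 without day 0 library 1. With 3 libraries a line, the wild-type slope alone did not set these genes apart from those of stem cells such as Zfp42, whose slope in the Notch1-deficient line was 0.01.

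Among the rises, those of greatest size included genes of blood, vessels, yolk sac and mesoderm. Hbb-bh1, the embryonic beta-like globin, had no count in any wild-type day 0 library and 94.9, 49.1 and 11.5 CPM at day 6, which is higher by at least 12.65 on the log2 scale against a bound of 3 counts over the group. Tdo2, the enzyme that opens the ring of tryptophan, went from at most 0.03 CPM to 31.4, 33.4 and 29.3 CPM (10.44, SE 0.67, edgeR adjusted p = 1.26e-06). Hapln1, a link protein that ties hyaluronan to proteoglycans in the heart's matrix, went from at most 0.10 CPM to 60.3, 45.3 and 38.2 CPM (8.98, SE 0.78). Bmp5 rose from 0.14, 0.10 and 0.29 CPM to 74.1, 78.1 and 72.7 CPM, and Amer3, a regulator of Wnt signalling, from at most 0.18 CPM to 24.6, 17.6 and 15.7 CPM. Of the abundant genes, Amot, a junction protein of the Hippo pathway, rose from 36.8, 30.6 and 33.5 CPM to 2644, 2672 and 2081 CPM.

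**Figure D3:**
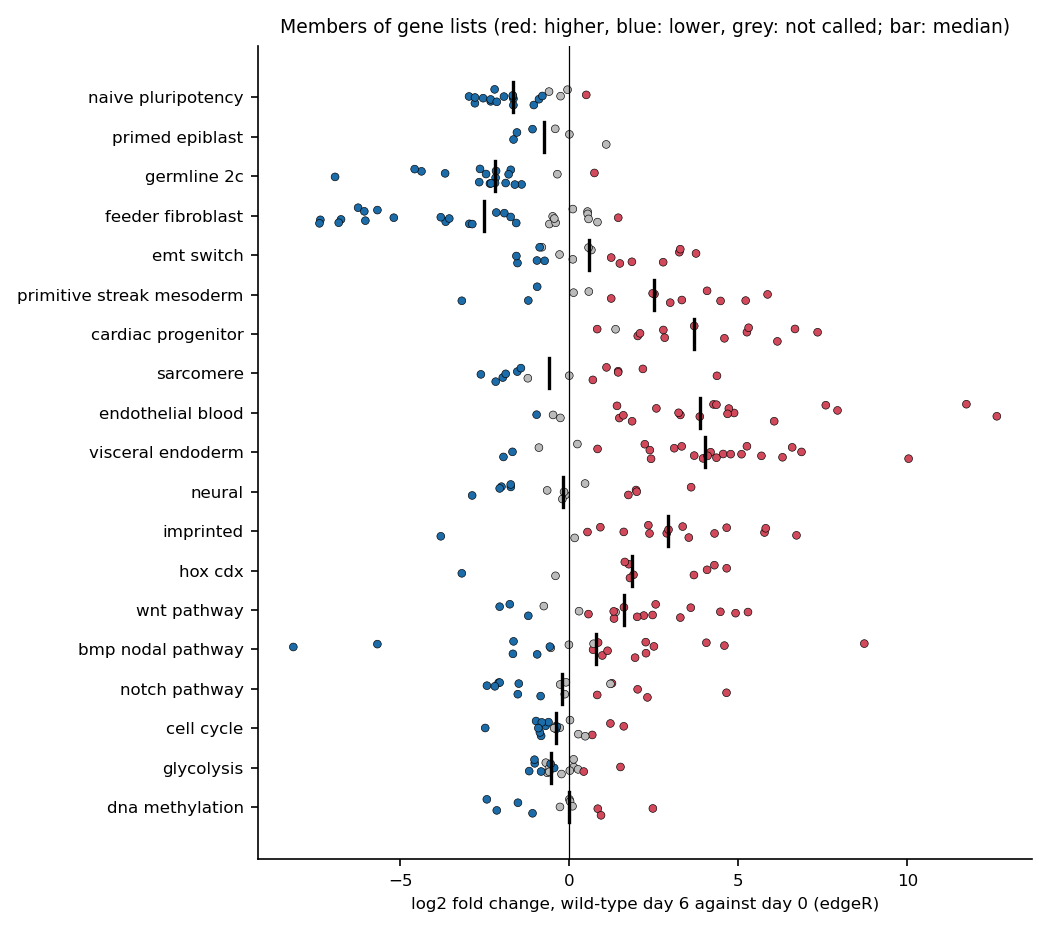
Log2 fold change from day 0 to day 6 in the wild type (x, edgeR) of the tested members of 19 gene lists (y); each point is a gene, red where called higher, blue where called lower and grey where not called, and bars are medians. Hbb-bh1 is drawn at its lower bound of 12.65. The germline and feeder fibroblast lists have the lowest medians and the visceral endoderm list the highest.

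Cardiac progenitor genes rose without muscle genes as a group. Of 13 tested progenitor genes, 12 rose, none fell and 1 was not called (median 3.70). Gata5 and Gata6, zinc finger factors of heart and endoderm, rose by 6.68 and 5.26. Pdgfra, a receptor of paraxial and cardiac mesoderm, went from 14.7, 6.96 and 28.6 CPM to 252, 241 and 160 CPM. Its FPKM was 1.57, 0.794 and 2.88 at day 0, and at day 6 it is listed at 0 in libraries 1 and 3 and at 22.5 in library 2. Nkx2-5, a homeobox factor of committed heart cells, reached only 1.00, 0.804 and 0.658 CPM from 0.220, 0.273 and 0.110 CPM (2.03, SE 0.50, edgeR adjusted p = 0.0057). Of 14 genes of the sarcomere, 6 rose and 6 fell (median -0.61), against 18.4% and 24.6% of all tested loci. The 6 rises became 2 without day 6 library 1 or with upper quartile scaling, and 3 without day 0 library 1 or 3 or day 6 library 2 or 3. Tnni1, the slow troponin I of the embryonic heart, rose from 0.92, 0.43 and 0.61 CPM to 14.9, 14.9 and 11.0 CPM. Ttn, Actn2, Myl2, Myl4, Myl7 and Nppb fell, with Ttn going from 14.7, 31.0 and 30.8 CPM to between 3.84 and 4.57 CPM. Nppb rested on day 0 library 2 (-1.88, and -0.47 with edgeR adjusted p = 0.319 without it) and was also lost without any 1 of the day 6 libraries, and Myl4 and Myl7 were each lost without 1 day 6 library.

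Vessel and blood genes rose together. Of 21 tested, 18 rose, 1 fell and 2 were not called (median 3.86), where 18.4% of all tested loci rose and 24.6% fell. Emcn, a sialomucin of endothelium, rose by 7.94 and Tie1, an endothelial receptor, by 4.27. Erg, an ETS factor of endothelium, went from 0.52, 0.26 and 0.39 CPM to 13.1, 11.6 and 9.96 CPM. Runx1, needed for definitive blood, went from 10.7, 15.8 and 17.1 CPM to 50, 53.8 and 54.7 CPM. The 1 fall was Pecam1, an adhesion molecule that stem cells also carry, from 146, 79.9 and 102 CPM to 61.2, 55.6 and 51.4 CPM. The globin genes varied most among the day 6 libraries: Hba-x was 22.6, 12.2 and 3.81 CPM in libraries 1, 2 and 3, in the same order as Hbb-bh1.

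In visceral endoderm, the outer layer that feeds the early embryo, 20 of 24 tested genes rose, 2 fell and 2 were not called (median 4.03). The shares over all tested loci were 18.4% higher and 24.6% lower. Apoa4 rose by 6.60 and Spink1 by 4.78. Ihh, a hedgehog ligand of this layer, went from 0.28, 0.39 and 0.22 CPM to 7.24, 10.1 and 13.2 CPM. Afp and Cer1 were lowest in day 6 library 1 (Afp 1.90, 3.44 and 4.52 CPM), the library with the most globin. Lrp2, an endocytic receptor, fell from 84.5, 84.6 and 123 CPM to 33.9, 26.4 and 30.9 CPM.

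Of 17 tested genes of the epithelial to mesenchymal transition, 7 rose, 5 fell and 5 were not called, Vim and Fn1 among the last. Over all tested loci, 18.4% rose and 24.6% fell. Cdh1, the epithelial cadherin of stem cells, fell from 715, 835 and 746 CPM to 224, 254 and 316 CPM (-1.53, SE 0.16, edgeR adjusted p = 1.83e-05). Cdh2, the neural cadherin also found in mesoderm, rose from 27.6, 23.6 and 34.8 CPM to 280, 283 and 276 CPM (3.29, SE 0.28, edgeR adjusted p = 5.05e-06). Twist1, Snai1, Snai2, Zeb1 and Zeb2, factors that repress epithelial genes, all rose, by 1.24 to 3.75. Krt18, a keratin of simple epithelia, rose as well, by 3.26, and Epcam, Esrp1, Grhl2 and Ovol2 fell, the last with a call lost without any 1 library other than day 0 library 3. At day 0 Zeb2 and Snai2 ranked the wild-type libraries as the fibroblast index did, with slopes of 1.23 and 2.05, so their day 0 levels moved with it.

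Signalling genes changed in a mixed way, and the counts below stand against 18.4% higher and 24.6% lower over all tested loci. In the Wnt pathway 13 of 19 tested genes rose and 3 fell (median 1.62): the feedback target Nkd1 rose from 4.92, 1.94 and 2.08 to 64.4, 66.6 and 67.6 CPM, and Wnt8a, Wnt3a and Fzd5 fell. Wnt8a lost its call without day 6 library 1 or 2, and Wnt3a without day 6 library 2. In the BMP and Nodal pathways 11 of 20 rose and 6 fell. Bmp2 rose from 3.50, 4.46 and 3.79 to 87.4, 105 and 91.1 CPM, and its feedback inhibitor Smad6 from 9.58, 5.86 and 8.69 to 148, 143 and 111 CPM, while Nodal, Lefty2, Inhba and Inhbb fell. Among FGF ligands, Fgf4, the ligand made by stem cells, fell from 213, 212 and 158 CPM to 37.9, 42.1 and 50.9 CPM, and Fgf3 rose from 1.12, 0.55 and 0.39 to between 8.36 and 11.8 CPM. Of 16 tested Notch pathway genes, 5 rose and 7 fell: the targets Hey1, Hey2 and Heyl rose, and the target Hes5 (at most 0.256 CPM), the ligand Dll1 and the DNA-binding partner Rbpj fell. Dll1 was 19, 2.70 and 26.6 CPM at day 0 and ranked the libraries as the index did. In the hedgehog pathway 6 of 13 rose, and the target Gli1 fell.

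Chromatin and DNA methylation genes moved in both directions. Among the oxidases of methylated cytosine, Tet1 fell from 919, 1130 and 940 CPM to 187, 176 and 189 CPM and Tet2 from 419, 466 and 297 to 94.9, 84.1 and 88.2 CPM, while Tet3 rose from 25.5, 26.2 and 27.6 to 152, 150 and 138 CPM by counts. By FPKM, Tet3 was 1.6, 1.34 and 1.55 at day 0, and at day 6 it is listed at 0 in libraries 1 and 2 and at 7.85 in library 3. Among Polycomb genes, Cbx2 and Cbx8 rose by 1.5 and 2.44 and Cbx7 fell by 0.98. Eed, Suz12 and Jarid2 fell, Suz12 with a call lost without day 0 library 2 (-0.40, edgeR adjusted p = 0.0588) or day 6 library 1, and Ezh2, the catalytic subunit, was 237, 250 and 261 CPM at day 0, against 238, 259 and 242 CPM at day 6. Smarca2, an ATPase of the BAF complex, rose by 2.55, and the other ATPase, Smarca4, was not called.

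Of 19 tested cell cycle genes, 10 fell and 3 rose (median -0.39), against 24.6% and 18.4% of all tested loci. Ccne1, the cyclin of entry into S phase, fell from 154, 327 and 353 CPM to 40.7, 55.5 and 52.7 CPM, the 4 tested Mcm genes of the replicative helicase (Mcm2, Mcm3, Mcm4 and Mcm5) fell by 0.37 to 0.87, Mcm4 with a call kept only without day 0 library 1 among single libraries left out, and the inhibitors Cdkn1b and Cdkn1c rose by 1.22 and 1.61. Of 17 glycolysis genes, 6 fell and 2 rose, not far from the same shares. Only 2 were called lower without day 0 library 2 or without any 1 day 6 library, and 3 with DESeq2 size factors or with no filter. Single genes moved both ways, with Hk2 at -1.19 (-0.78 without day 0 library 2) and the lactate transporter Slc16a1 at 1.52. Imprinted genes rose in 14 of 16 cases (median 2.91), and the 1 fall was Dcn, which also belongs to the fibroblast list and followed the index. Of 10 tested homeobox genes of the body axis, 8 rose, among them Hoxc9 from 1.29, 0.665 and 1.31 to 30.2, 31.3 and 21.0 CPM, and Cdx1 fell (-3.18, and -1.64 without day 0 library 1).

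The FPKM values served as a check and gave values for genes that the count test did not cover. Of 5306 loci that the counts called and that both tests covered, FPKM called 4500 (84.81%) in the same direction and 5130 (96.68%) had the same sign. In 53 cases both were called in opposite directions, and Igf2, listed at 0 FPKM in all 3 day 6 libraries, and Gadd45a, a gene induced by DNA damage, were among them. By FPKM, 3157 of 13371 loci (23.6%) rose and 2762 (20.7%) fell (limma). Hand1, a bHLH factor of heart and extraembryonic mesoderm, was 0.640, 0.889 and 1.08 FPKM at day 0 and 284, 239 and 171 FPKM at day 6 (6.93, SE 0.57, limma adjusted p = 9.21e-06, on the log2(FPKM + 1) scale). Hand2 rose from at most 0.192 FPKM to 34.2, 37.8 and 26.3 FPKM. Dkk1, a secreted Wnt antagonist, rose from at most 0.309 FPKM to 20.1, 21.8 and 19.4 FPKM. Evx1, a homeobox factor of the primitive streak, rose from 0.0593, 0.669 and 0.0565 to 7.98, 8.08 and 7.34 FPKM. Bmp4, the ligand that induces mesoderm, rose from 10.1, 34.4 and 11.5 to 69.1, 59.3 and 63.2 FPKM, and the Notch target Hes1 from 22.7, 13.2 and 22.4 to 50, 46.1 and 43.9 FPKM. Tcl1, a coactivator of AKT in naive cells, fell from 38.8, 28.7 and 30.2 to 6.74, 7.76 and 8.57 FPKM, and the corepressor Trim28 from 289, 482 and 519 to 195, 211 and 200 FPKM.

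**Figure D4:**
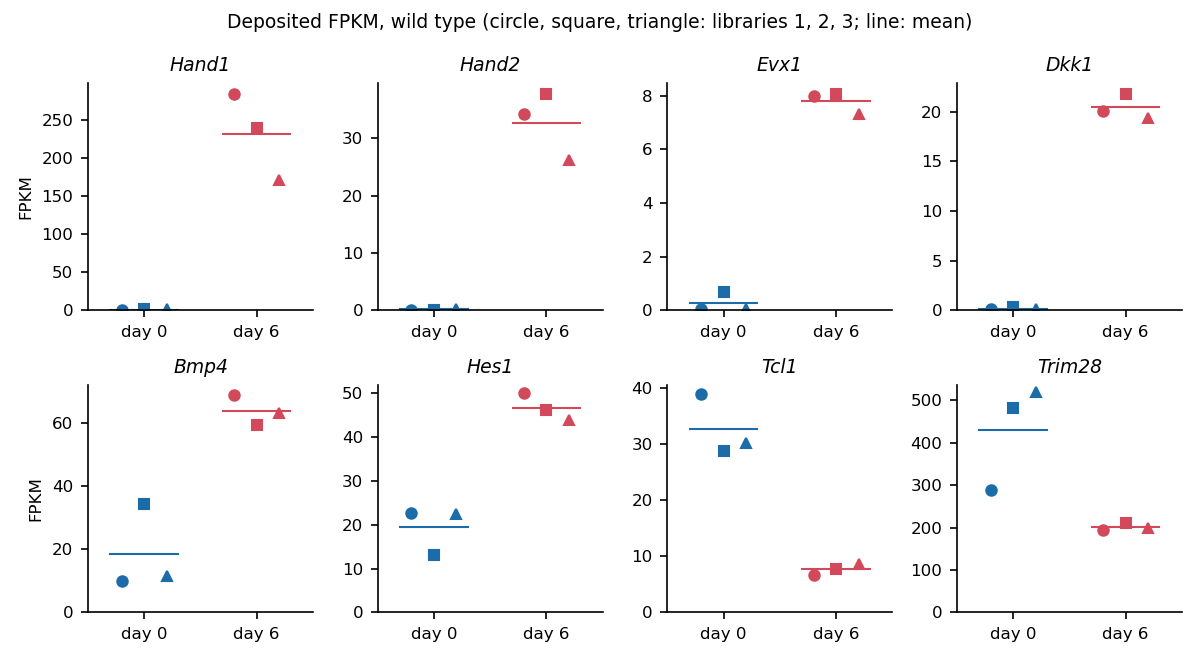
Deposited FPKM (y, linear from 0) at day 0 and day 6 in the wild type (x) for 8 genes that the count test did not cover. Points are libraries (circle 1, square 2, triangle 3) and lines are means. The 8 genes were chosen after their values had been seen. All 8 show no overlap between the time points, which also held for 53.8% of the loci tested by counts. Hand1, Hand2, Evx1 and Dkk1 start near 0, and Tcl1 and Trim28 are lower at day 6.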

How the data were processed

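RNA selected for poly(A) was sequenced as pairs of 100-base reads, per the labels' protocols. Build mm9 and the tools HTSeq 0.5.4p3, Cufflinks 2.1.1, TopHat2 2.0.8 and DESeq come from the submitters' processing notes; their roles, the strand setting and any filter were not stated there. For each merged locus the authors deposited a raw count and an FPKM value normalised by length and library size. Symbols come from matching exon and intron lengths of the deposited transcript models to GENCODE M21 transcripts in gene order, without converting coordinates: 17386 loci were linked to 1 gene and 1559 held several. As a check, matches by internal exons gave 3 loci on a wrong chromosome, against 15598 linked that way. Matches by both outer exons or an exact single exon gave a mean of 22.5 loci per shift of 400 genes, against 1154 linked. Another 634 loci were linked by an intron and 1 outer exon. The counts seem to omit reads that overlap several loci, so 4677 loci with at least 50% shared exon length are uncertain, as are antisense pairs and near-identical genes.

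Counts were tested with edgeR 4.0.16 (R 4.3.3; quasi-likelihood, TMM, default filter, robust, chosen because its counts of calls equal those of an earlier analysis, Benjamini-Hochberg over 23991 loci), with all 12 libraries in 1 fit and a mean per group. FPKM values were tested with limma 3.58.1 on log2(FPKM + 1), over loci with at least 1 FPKM in 3 libraries. Only the edgeR test was also run on simulated counts. Slopes used log2 CPM with a prior count of 0.5. The smallest of the 12 libraries held 100637179 counts, and bounds from 0 counts cover counting error only.

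The genes fixed by name were Lox, Mgp, S100a4 and Notch1, and values of Notch1 are not given here. Further genes were named by rule: the 12 of greatest change in each direction, up to 5 of smallest p per list and 8 abundant genes in each direction. The 12 greatest falls of each of the following and not following classes were named as well. Others, such as Hprt, Mmp3, Mmp10, Klf4, Pdgfra and the FPKM genes, were chosen after their values had been seen. Members, classes and the 29 lists were chosen with earlier results of these data known. Alternatives were other scalings, filters and tools, left-out libraries, FPKM, and other indices and slopes.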

Additional observations from a re-analysis of the deposited data

Results flagged for a closer look

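The change in the wild type was compared with the change in the Notch1-deficient line (edgeR's test of the difference, adjusted over all loci and called at 11.1% of them). The difference was called for 70 of the 177 named genes, and those among the 24 genes of greatest change and the genes fixed by name are given here. All 9 rose more in the wild type. Levels of Hprt and of Y-linked genes also differed between the lines, and effects of Notch1 and of the line cannot be told apart. On the log2 scale it was 7.71 for Tdo2 (adjusted p = 0.00282), 7.44 for Hapln1 (0.000601), 6.34 for Tbx20 (0.000256), 6.30 for Ttr (0.0203) and 6.30 for Cdh5 (7.04e-05). It was 5.62 for Capn6 (0.00154), 4.92 for Prdm6 (0.0336), 4.88 for Unc5c (0.00133) and 3.35 for Bmp5 (0.0192). No difference was called for the 12 greatest falls.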

How the results depend on the processing

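The counts of higher and lower loci stayed within 1.5 times their main values under each scaling, filter, tool and left-out library run, and those of following and not following loci under each scaling, filter, tool and left-out day 6 library, with these exceptions (classes were not redrawn without a day 0 library). By FPKM, 2762 loci were lower (2814 with a pseudocount of 0.1), 307 followed the index and 87 followed in both lines. With slopes of 0.25 and 0.75, 465 and 159 followed in both lines, against 295. Upper quartile scaling lowered the median of all loci to -0.29. An index of Mgp and S100a4 without Lox, added after seeing the data, gave 749 following loci and 277 in both lines. Left-out libraries gave 3495 to 4641 higher and 4373 to 6110 lower loci. By FPKM, Igf2 was -4.22 (-7.47 with a pseudocount of 0.1), Sgce -1.46 (-3.54), Tet3 -0.27 (-1.89), Gadd45a -1.70 (-1.75) and Atp5a1 -0.36 (-0.36), all opposite to the counts, as was Pdgfra with the pseudocount of 0.1 (-1.44), and for Gadd45a and Atp5a1 the cause was not tested. The values of the other 4 rest on exact zeros: at day 6 Igf2 is listed at 0 in all 3 libraries, Sgce and Tet3 in libraries 1 and 2 (47.8 and 7.85 FPKM in library 3, above day 0) and Pdgfra in libraries 1 and 3. Exact zeros also occur in 1 library each for Dnmt1, Chd7 and Pfkm, so they may be failed estimates. Over all named genes and settings, 3689 values kept direction and call, 139 lost the call, 25 gained it and 16 turned direction. The labels share replicate numbers between time points, but nothing says that the numbers pair cultures. Deviations from the group mean, over all tested loci, correlated weakly between samples of the same number (r = 0.11, 0.0977 and 0.0491). Between samples of different numbers r was -0.0822 to -0.0125, so each sample correlated best with its own number. Such small values, with low-count loci included, cannot decide whether samples are paired. The main fit therefore left them unpaired, with a block as an alternative. With the replicate block, 4881 loci were higher and 6148 lower, against 4404 and 5910 in the main fit. A fit of only the 6 wild-type libraries tested 21867 loci and called 4110 higher and 5048 lower.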
